A study of Mus musculus with 9 samples.

Results

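Irs2, Sik1 and Bhlhe40 encode 3 regulators that stand at different points of hormone and nutrient signalling in hepatocytes. They were taken from the deposited tables by gene symbol, and they make up 3 of the 10260 gene symbols listed there. The genes were chosen by their measured counts and differences between groups in these tables, and which comparison weighed most is not recorded, so all their differences between groups are given below as a description. Each symbol was counted through 1 curated transcript (NM_001081212.1 for Irs2, NM_010831.2 for Sik1 and NM_011498.4 for Bhlhe40), and all 3 genes passed the filter on low counts in all 3 tables.

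The cells were AML12, a mouse hepatocyte line, grown in serum-containing medium. The control group was untreated. The PA/OA group received palmitic acid at 0.2 mM and oleic acid at 0.4 mM for 24 h, which loads hepatocytes with lipid. The Ang(1-7) group received the same fatty acids after 100 nM angiotensin-(1-7), a peptide hormone of the renin-angiotensin system, added 30 min earlier. Each group had 3 RNA-seq libraries. All of them come from 1 cell line, no group received the peptide without fatty acids, and none is labelled as treated with the carrier of the fatty acids or with insulin. Nothing in the labels says whether the samples came from separate cultures, so the spread between them may be technical.

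Irs2 is a docking protein that couples the activated insulin receptor to PI3-kinase and AKT. In liver its gene is switched on by FOXO1 and by CREB with its coactivator CRTC2 during fasting, and it is repressed when insulin signalling removes FOXO1 from the nucleus. Sik1 is a salt-inducible kinase of the AMPK-related family, activated by LKB1, that holds CRTC coactivators and class IIa histone deacetylases in the cytoplasm. Its own gene is a target of cAMP and CREB. Bhlhe40, also called Dec1, is a basic helix-loop-helix repressor that binds E-boxes, dampens the activity of CLOCK and BMAL1 in the circadian clock, and is induced by hypoxia.

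Among the 3 genes, an upstream sequence was available for Irs2 alone, and those of Sik1 and Bhlhe40 were not searched. The Irs2 sequence is shown because it holds, side by side, letters that match the sites of regulators named above. It covers the 250 bases before the RefSeq start of Irs2 on the minus strand (chr8:11008930-11009179, GRCm38.p6). Capitals mark the E-box CACGTG, the hexamer bound by Bhlhe40 and other E-box proteins, and TGTTTTG, the core of the insulin response element through which FOXO proteins act.
Irs2 upstream region: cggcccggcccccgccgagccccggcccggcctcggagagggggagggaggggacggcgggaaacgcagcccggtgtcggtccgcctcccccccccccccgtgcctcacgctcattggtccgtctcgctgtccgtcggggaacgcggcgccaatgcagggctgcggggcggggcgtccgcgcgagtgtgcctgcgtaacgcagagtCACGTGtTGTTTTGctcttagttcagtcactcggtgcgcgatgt
Counted from the start site, CACGTG began at base -44 and TGTTTTG at base -37, so 1 base lies between them. Both strands were searched. CACGTG, which reads the same on both strands, occurred in 6.05% of 27025 RefSeq upstream windows of this length, and TGTTTTG in 5.55%. The full cAMP response element TGACGTCA (in 1.62% of windows) and the FOXO core TGTTTAC (in 3.09%) were not among the letters of the Irs2 window. A match describes the sequence and does not show that a factor binds there.

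Library depth was 24759184 to 28704499 counts, and each library gave the 3 genes between 4234 and 17544 counts, so counting error alone was 0.755% to 1.54% of a value. The gene levels below are in CPM, each count expressed per 1e6 of its TMM-scaled library total. Sums of cell type markers are per 1e6 of the library total without that scaling. Hepatocyte markers summed to between 21086 and 23806 CPM in the table of the PA/OA and Ang(1-7) libraries, with 9 of 12 markers listed. Nearly all of that sum was the keratins Krt8 and Krt18. Albumin was low, at 80 to 550 counts per library. Library Ang(1-7) 2 stood apart from the other 8, with correlations of 0.917 to 0.937 to them, so the differences, ratios and correlations of the 3 genes that include it are also given without it. In bulk RNA, fewer cells of a type and less RNA per cell cannot be told apart.

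Irs2 was at 162, 166 and 162 CPM in the 3 control libraries, 242, 240 and 202 CPM in the PA/OA libraries, and 200, 165 and 216 CPM in the Ang(1-7) libraries. Every PA/OA library was above every control library. The Ang(1-7) libraries spanned the space between, with library 2 at the control level and library 3 inside the PA/OA range. The group means were 163 ± 2.43, 228 ± 22.4 and 194 ± 25.8 CPM (SD, n = 3). The coefficient of variation was 1.49% in control cells, against 9.80% in the PA/OA group and 13.3% in the Ang(1-7) group.

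Sik1 was at 181, 187 and 186 CPM in control, 256, 233 and 220 CPM with PA/OA, and 207, 202 and 224 CPM with Ang(1-7). All 6 fatty acid libraries were above all 3 control libraries, and the Ang(1-7) and PA/OA ranges overlapped. Sik1 averaged 185 ± 3.32, 236 ± 17.7 and 211 ± 11.6 CPM (SD, n = 3) in the same group order. Sik1 and Irs2 thus had the same order of group means, with control lowest and PA/OA highest.

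Bhlhe40 was at 346, 408 and 395 CPM in control, 511, 464 and 470 CPM with PA/OA, and 485, 658 and 540 CPM with Ang(1-7). Its order differed: Ang(1-7) had the highest mean, although the lowest Ang(1-7) library lay inside the PA/OA range. Its means were 383 ± 32.3, 482 ± 25.3 and 561 ± 88.7 CPM (SD, n = 3). The highest value, 658 CPM, was in Ang(1-7) 2, the library in which Irs2 and Sik1 had their lowest values of that group.

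**Figure D1:**
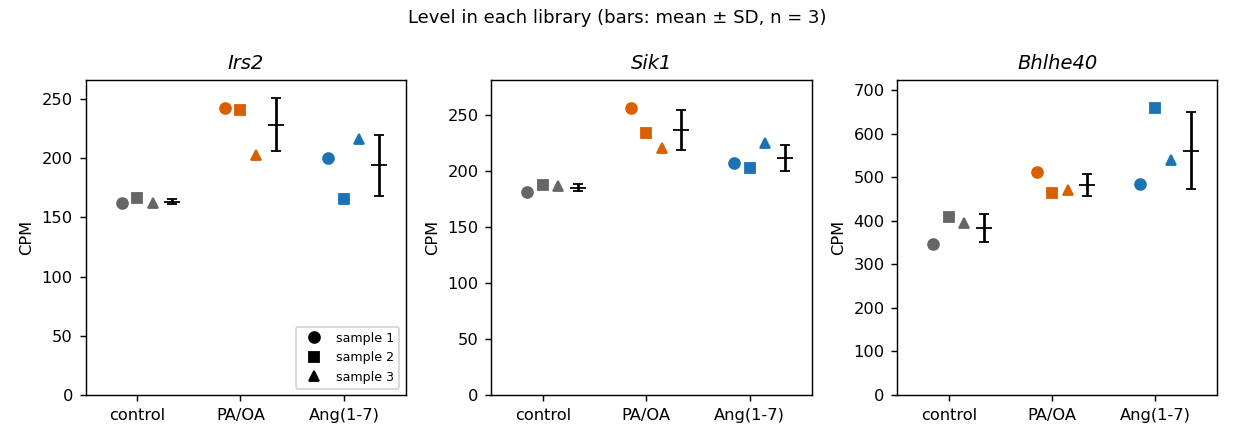
Level of Irs2, Sik1 and Bhlhe40 in CPM (y axis, from 0) in each library of the 3 groups (x axis). Symbols give the sample number, which was not used to pair samples, and bars give the mean ± SD of 3 libraries. Control libraries lie below all PA/OA libraries in each panel; the square in the Ang(1-7) group is low for Irs2 (165 CPM) and high for Bhlhe40 (658 CPM).

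Per kilobase of transcript, Bhlhe40 was the most abundant of the 3 RNAs and Irs2 the least. In control cells Bhlhe40 stood at 123 ± 10.4 CPM per kb, Sik1 at 40.9 ± 0.735 and Irs2 at 25.8 ± 0.384 (SD, n = 3). These levels used transcript lengths of 3113, 4521 and 6323 bases. The same order held in the PA/OA group, at 155 ± 8.14, 52.3 ± 3.92 and 36.1 ± 3.54 CPM per kb, and in the Ang(1-7) group, at 180.2 ± 28.5, 46.7 ± 2.57 and 30.7 ± 4.09. The means of Ang(1-7) 1 and 3 alone were 165, 47.6 and 32.9 CPM per kb. By CPM without length, Bhlhe40 ranked 503 of 6033 genes in control cells, Sik1 1039 and Irs2 1154.

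The first comparison, of PA/OA with control, asks what fatty acid loading does to hepatocyte RNA. Irs2 was 1.39-fold higher with PA/OA, a log2 difference of 0.48 ± 0.09 (SE; 95% interval 0.30 to 0.66). Sik1 was 1.28-fold higher, at 0.35 ± 0.08 (0.18 to 0.52). Bhlhe40 was 1.26-fold higher, at 0.33 ± 0.07 (0.17 to 0.48). The median over all 6213 genes tested was 0.01.

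All 3 were called higher by edgeR's quasi-likelihood test at an adjusted p under 0.05, where 2.82% of all genes were called higher, 2.24% lower and 5.05% in either direction. All 3 also had groups that did not overlap with PA/OA higher, as did 12.2% of all genes, out of 23.8% without overlap in either direction. Since the genes were chosen with such values known, nothing is read from these counts. By size of log2 difference they ranked 686 (Irs2), 1034 (Sik1) and 1108 (Bhlhe40) of 6213 genes.

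The call of Irs2 held with each library left out in turn, at 0.43 to 0.56 on the log2 scale. Sik1 ranged from 0.29 to 0.40 and lost its call without control 1 or PA/OA 1, and Bhlhe40 ranged from 0.26 to 0.38 and lost its call without control 1. In a fit of all 9 libraries, which takes its spread from the Ang(1-7) group too, none of the 3 was called, while the differences stayed at 0.48, 0.36 and 0.33. The authors' deposited table gives log2 fold changes of 0.45, 0.32 and 0.30 for Irs2, Sik1 and Bhlhe40.

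Markers of other cell types differed between the same groups. Cholangiocyte markers, 4 of 6 of them listed and mostly keratins Krt7 and Krt19, summed to 1993 to 2135 CPM in control and 1568 to 1711 CPM with PA/OA. Macrophage markers, 3 of 8 listed and mostly the lipopolysaccharide coreceptor gene Cd14, summed to 587 to 626 CPM in control and 674 to 816 CPM with PA/OA. Neither sum overlapped between the groups. Their part in the higher Irs2, Sik1 and Bhlhe40 levels was not tested.

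The second comparison, of Ang(1-7) with PA/OA, asks what the peptide adds to fatty acid loading. It shares the PA/OA libraries with the first, so the values are set side by side and no opposite movement is read from them. Irs2 differed by -0.23 ± 0.14 on the log2 scale (95% interval -0.55 to 0.08) and Sik1 by -0.16 ± 0.12 (-0.43 to 0.10). Bhlhe40 differed by 0.22 ± 0.13 (-0.08 to 0.52). Each interval includes 0, the groups overlapped for all 3 genes, and none was called.

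That lack of calls was general. edgeR called 0 of 9261 genes (0.00%), with 236 at an unadjusted p under 0.05, and DESeq2 called 5, none of them Irs2, Sik1 or Bhlhe40. Groups failed to overlap for 0 of the 3 genes and for 11.0% of all genes, 4.60% with Ang(1-7) higher. Without Ang(1-7) 2, the differences shrank to -0.12 ± 0.10 for Irs2, -0.12 ± 0.09 for Sik1 and 0.10 ± 0.08 for Bhlhe40, again with 0.00% of genes called. For Irs2 and Bhlhe40 that is a change of more than 1.5 times made by 1 library. Sik1 moved as much without PA/OA 1, to -0.09. The intervals leave room for a fall of Irs2 or a rise of Bhlhe40 as large as the PA/OA difference itself, so equal levels were not shown.

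The third comparison sets Ang(1-7) against control, and shares its libraries with both others. Bhlhe40 was 1.45-fold higher, at 0.53 ± 0.13 on the log2 scale (95% interval 0.23 to 0.84), and its groups did not overlap. Sik1 differed by 0.18 ± 0.10 (-0.05 to 0.41), again with no overlap. Irs2 differed by 0.23 ± 0.13 (-0.06 to 0.52), with 1 Ang(1-7) library inside the control range, and by 0.15 without Ang(1-7) 3. Groups without overlap and with Ang(1-7) higher made up 13.2% of all genes, and those without overlap in either direction 26.5%.

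None of the 3 was called by edgeR in this comparison, in which 15 of 6134 genes were (0.245%). DESeq2, which called 259 of 6141 genes (161 higher), called Bhlhe40 at an adjusted p of 0.0291. The fit of all 9 libraries called 100 of 6033 genes (67 higher), with Bhlhe40 at 0.0472. The authors' deposited log2 fold changes were 0.21 for Irs2, 0.16 for Sik1 and 0.52 for Bhlhe40. Of the 3, Bhlhe40 alone had a deposited p-value under 0.05 after Benjamini-Hochberg adjustment over 6828 transcripts. Without Ang(1-7) 2 the share of genes called rose to 10.2%, with 5.22% called higher and 4.96% lower. Bhlhe40 was then called at 0.41 ± 0.08 (0.24 to 0.58) and Irs2 at 0.34 ± 0.09 (0.16 to 0.52), whereas Sik1, at 0.21 ± 0.08 (0.04 to 0.39), was not. The biological coefficient of variation, the fitted spread between libraries of a group, was 30.7% with that library and 21.2% without it.

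**Figure D2:**
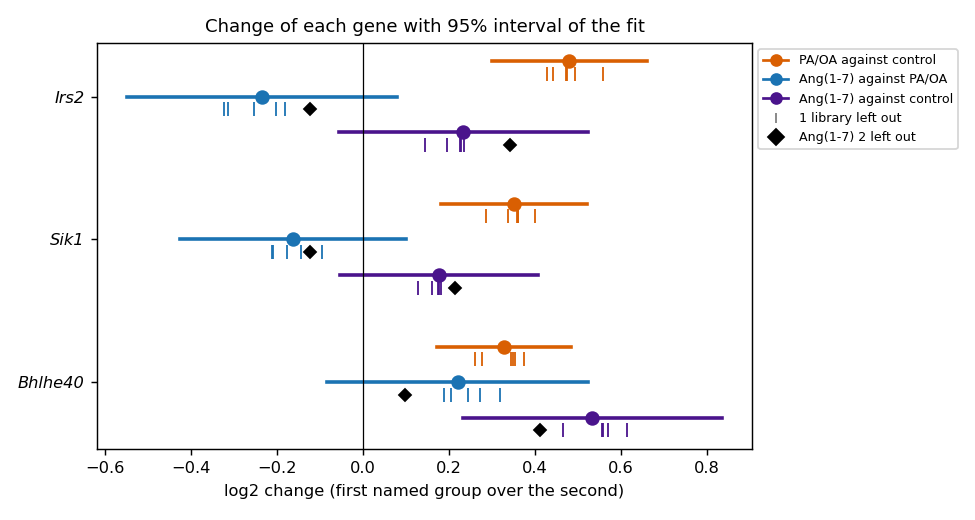
Log2 difference (x axis) of Irs2, Sik1 and Bhlhe40 in the 3 comparisons; points and lines give the estimate and its 95% interval, ticks the estimate with 1 library left out, and diamonds the estimate without Ang(1-7) 2. The PA/OA intervals lie above 0 for all 3 genes, those of Ang(1-7) against PA/OA include 0, and the diamonds lie nearest to 0 for Irs2 and Bhlhe40 in that comparison.

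Markers of other cell types also set Ang(1-7) 2 and 3 apart. In the table of Ang(1-7) and PA/OA, nervous system markers summed to 196 and 184 CPM in Ang(1-7) 2 and 3, against 126 to 138 CPM in the other 4 libraries. Most of that sum was Mbp, with 3108 to 3614 counts in every library. This table listed 8 of 14 nervous system markers, whereas that of PA/OA and control listed 1. Ang(1-7) 2 and 3 had reads for all 8, and each other library for 2 or 3. Nefm, Stmn2, Tubb3 and Mog had 0 counts in the other 4 libraries. Being listed may thus depend on the 2 high libraries, so nothing is read from the number of markers detected. Slc1a2 did not follow the sum, with 20 and 5 counts in Ang(1-7) 2 and 3 and 2 to 23 in the others. The neurofilament gene Nefl had 923 and 477 counts in those 2 libraries and 0 in the other 4. Of the gene set, Bhlhe40 was highest in these 2 libraries as well (658 and 540 CPM), while Irs2 was lowest in 1 of them and highest of its group in the other. Collagen genes Col1a2 and Col3a1 had 28 and 71 counts in Ang(1-7) 2, 30 and 31 in Ang(1-7) 3 and 0 in the other 4. Col1a1, another collagen gene, did not follow this. It had 40 and 30 counts in Ang(1-7) 2 and 3, but also 36 in Ang(1-7) 1 and 15 in PA/OA 2. Des, on the same marker list, had 135 to 339 counts in every library. In Ang(1-7) 2 and 3, 2 globin genes summed to 115 and 64 counts, against 0 to 4 in the others. Cholangiocyte markers were lower in Ang(1-7) 2, at 1135 CPM against 1562 to 1707 CPM in the other 5 libraries, and macrophage markers overlapped between the groups (670 to 811 CPM). Against control, the Ang(1-7) libraries had lower cholangiocyte sums (1141 to 1714 against 1994 to 2138 CPM) and higher macrophage sums (705 to 808 against 587 to 627 CPM). The part of these transcripts in the Bhlhe40, Sik1 and Irs2 values was not tested.

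Ratios of counts within a library do not depend on scaling between libraries, and showed how the 3 genes moved against each other. The ratio of Bhlhe40 to Sik1 was 1.91, 2.18 and 2.12 in control, 2.00, 1.99 and 2.13 with PA/OA, and 2.35, 3.25 and 2.41 with Ang(1-7). Control and PA/OA overlapped, and all 3 Ang(1-7) libraries were above all 6 others. The log2 difference was 0.37 from PA/OA and 0.35 from control. It was 0.22 and 0.20 without Ang(1-7) 2, still with no overlap.

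The ratio of Bhlhe40 to Irs2 was 2.14, 2.46 and 2.44 in control, 2.11, 1.93 and 2.32 with PA/OA, and 2.43, 3.98 and 2.50 with Ang(1-7). Here Ang(1-7) was above PA/OA in every library, by 0.45 on the log2 scale, but overlapped control. The difference from PA/OA was 0.22 without Ang(1-7) 2, again with no overlap. From control the difference was 0.30, or 0.07 without that library, with overlap both times. Sik1 to Irs2 was 1.12, 1.13 and 1.15 in control and 1.06, 0.971 and 1.09 with PA/OA, a log2 difference of -0.13 without overlap. With Ang(1-7) it was 1.03, 1.22 and 1.04, which overlapped both other groups. The log2 difference from control was -0.05, or -0.13 without Ang(1-7) 2 and then with no overlap. From PA/OA it was 0.08, or -0.002 without that library, with overlap both times. These ratios come from the values that chose the genes, so they are described with no test.

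**Figure D3:**
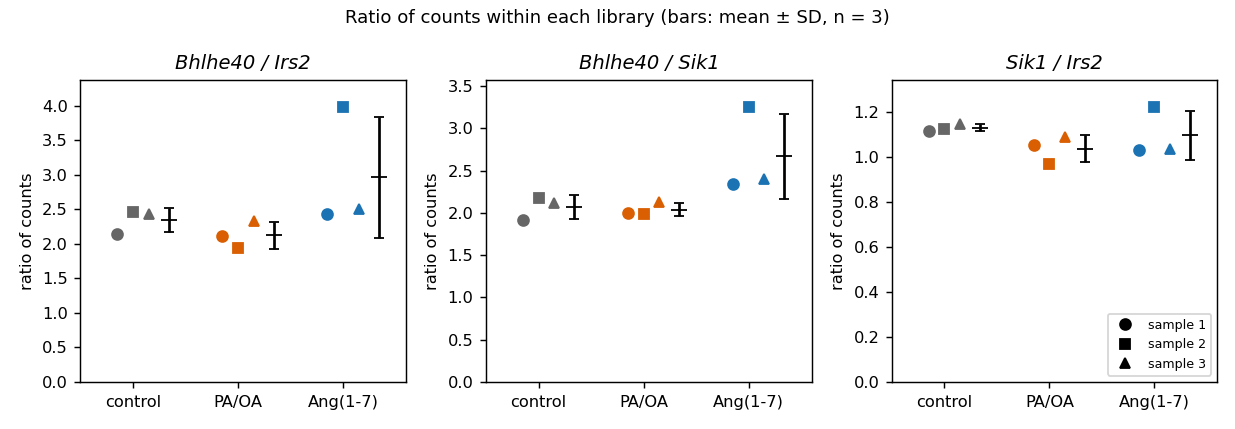
Ratio of the counts of each pair of genes within each library (y axis, no unit, from 0) by group (x axis); symbols give the sample number and bars the mean ± SD of 3 libraries. Bhlhe40 to Sik1 is at 2.35 or above in the 3 Ang(1-7) libraries and at 2.18 or below in the 6 others.

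Across the 9 libraries, log2 CPM of Irs2 and Sik1 had a Pearson r of 0.947, and 0.973 without Ang(1-7) 2. This describes the points and includes the shift between groups. Bhlhe40 followed them less, with r = 0.344 to Irs2 and 0.536 to Sik1, and without Ang(1-7) 2 these were 0.837 and 0.840. Taken as deviations from the group means, r was 0.783 for Irs2 and Sik1, -0.44 for Irs2 and Bhlhe40, and 0.114 for Sik1 and Bhlhe40. With that library left out these became 0.832, 0.417 and 0.718, so the sign for Irs2 and Bhlhe40 rests on that library.

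Among 5795 genes compared, Sik1 was the gene whose pattern was most like Irs2 (r = 0.947), followed by Ttyh2 (0.946), Hmga2 (0.929), Cebpd (0.927) and Slc35e3 (0.923). Ttyh2, a membrane protein gene, went from 277 ± 3.04 CPM in control to 329 ± 28.1 with PA/OA and 309 ± 14.0 with Ang(1-7) (SD, n = 3). Among the genes most like Sik1 were Ttyh2 (0.957), Atg9b (0.951), Irs2 (0.947) and Col6a1 (0.928).

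For Bhlhe40 the nearest patterns were Phyh (0.972), Trp53bp2 (0.970), Zfp955a (0.969), Ankrd1 (0.968) and AK010878 (0.968). Phyh encodes the enzyme that starts peroxisomal breakdown of phytanic acid, and went from 30.8 ± 3.47 to 36.9 ± 2.64 and 47.2 ± 10.1 CPM. Ankrd1, a target of YAP signalling, was at 3009 ± 110.3, 3668 ± 127 and 4228 ± 830 CPM. Without Ang(1-7) 2, 2 of the 5 nearest genes stayed for Irs2, 3 for Sik1 and 1 for Bhlhe40. All of these correlations share the 9 libraries and the choice of the largest among many, and have no p.

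Irs1 was the close relative with enough counts to judge. This gene, the other main insulin receptor substrate of liver, was at 37.9 ± 5.24 CPM in control and 36.2 ± 6.67 with PA/OA, a log2 difference of -0.06 ± 0.16 (95% interval -0.41 to 0.28). Ang(1-7) differed from PA/OA in Irs1 by 0.15 ± 0.20, and from control by 0.07 ± 0.19, or by 0.26 ± 0.17 and 0.18 ± 0.16 without Ang(1-7) 2. No test of Irs2 against Irs1 was made. Sik3 had 2 to 36 counts and Stk11, which encodes LKB1, 0 to 89 counts in the Ang(1-7) and PA/OA libraries, too few to show a difference of the size seen in Sik1. Insr, Sik2 and Bhlhe41 had 0 transcripts listed in each comparison, so they were not analysed here.

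The pathways around the 3 genes were described with 7 lists of 177 genes in all, of which 79 were tested in PA/OA against control, 76 of them beside Irs2, Sik1 and Bhlhe40. Of those 76, 1 rose and 0 fell, against 5.05% of all genes called, and their median log2 difference was 0.05, against 0.01 for all genes. The gene that rose was Phlpp1, a phosphatase that removes an activating phosphate from AKT, from 60.6 ± 9.12 to 84.4 ± 10.7 CPM (0.48 ± 0.13, adjusted p = 0.0398). Its call was lost in 5 of 6 fits with 1 library left out (adjusted p 0.0503 to 0.225), and in the fit of all 9 libraries (0.295), and held without control 2.

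Of 14 genes between the insulin receptor and FOXO, apart from Irs2, 0 rose and 0 fell, with a median of 0.14. Foxo1, a transcriptional activator of Irs2, was at 11.2 ± 1.83 CPM in control and 15.3 ± 3.36 with PA/OA (0.45 ± 0.25, 95% interval -0.07 to 0.97). Foxo3 was at 46.9 ± 7.07 and 60.5 ± 11.3 (0.37 ± 0.15, 0.05 to 0.68). Eif4ebp1, on the same list, went the other way, at 287 ± 0.354 and 246 ± 39.6 (-0.23 ± 0.09, -0.42 to -0.03). None of them was called. Of 12 genes of gluconeogenesis and FOXO targets, none was called, with a median of 0.08. Around Sik1, 0 of 9 genes of the LKB1, AMPK and SIK list and 0 of 13 genes of the cAMP and CREB list were called. Junb, an abundant immediate early gene on the latter list, was at 988 ± 74.8 and 1037 ± 118 CPM.

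Neither the clock list (0 of 8 genes called beside Bhlhe40, median -0.04) nor the hypoxia list (0 of 11, median 0.01) had a called gene. Nr1d2, a repressor of the clock, was at 210 ± 24.7 and 206 ± 18.1 CPM, a log2 difference of -0.02 ± 0.09 (95% interval -0.22 to 0.17). On the hypoxia list, the estimates ran from -0.66 (Slc2a1) to 1.01 (Epas1, which encodes a hypoxia-inducible factor). Their mean counts were 319 and 113. Slc2a1 was widely spread in control (14.9 ± 8.18 CPM), and Epas1 with PA/OA (5.78 ± 3.52 CPM). Bnip3 was at 0.28 ± 0.12 and Ero1l at 0.26 ± 0.13, near the Bhlhe40 difference of 0.33, neither called. Higd1a, at -0.37 ± 0.18, and Pgk1, at -0.11 ± 0.05, went the other way, also not called. Of the 11 genes, groups did not overlap for Bnip3, Egln1 (0.22 ± 0.18), Higd1a and Pgk1. The share without overlap among all genes was 23.8%, and nothing is read from these genes.

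In Ang(1-7) against PA/OA, 0 of 121 list genes, Irs2, Sik1 and Bhlhe40 included, were called by edgeR, and 0 by DESeq2. In Ang(1-7) against control, 0 of 78 were called by edgeR. DESeq2 called 4, with Bhlhe40 among them, where it called 259 of 6141 genes in all. The hypoxia list had a median of 0.26, or 0.05 without Ang(1-7) 2. Without Ang(1-7) 2, 6 of 75 genes beside Irs2, Sik1 and Bhlhe40 were called, or 8% against 10.2% of all genes. Of these, 4 rose: Foxo1 (0.94 ± 0.24, adjusted p = 0.0190), Phlpp1 (0.58 ± 0.13, 0.00851), and the hypoxia genes Bnip3 (0.52 ± 0.12, 0.0104) and Ero1l (0.56 ± 0.14, 0.0153). Bnip3 encodes a mitophagy receptor and Ero1l an oxidase for disulfide formation in the endoplasmic reticulum. Eif4ebp1, a translation repressor inactivated by mTOR (-0.29 ± 0.08, 0.0197), and Junb (-0.27 ± 0.07, 0.0198) fell.

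**Figure D4:**
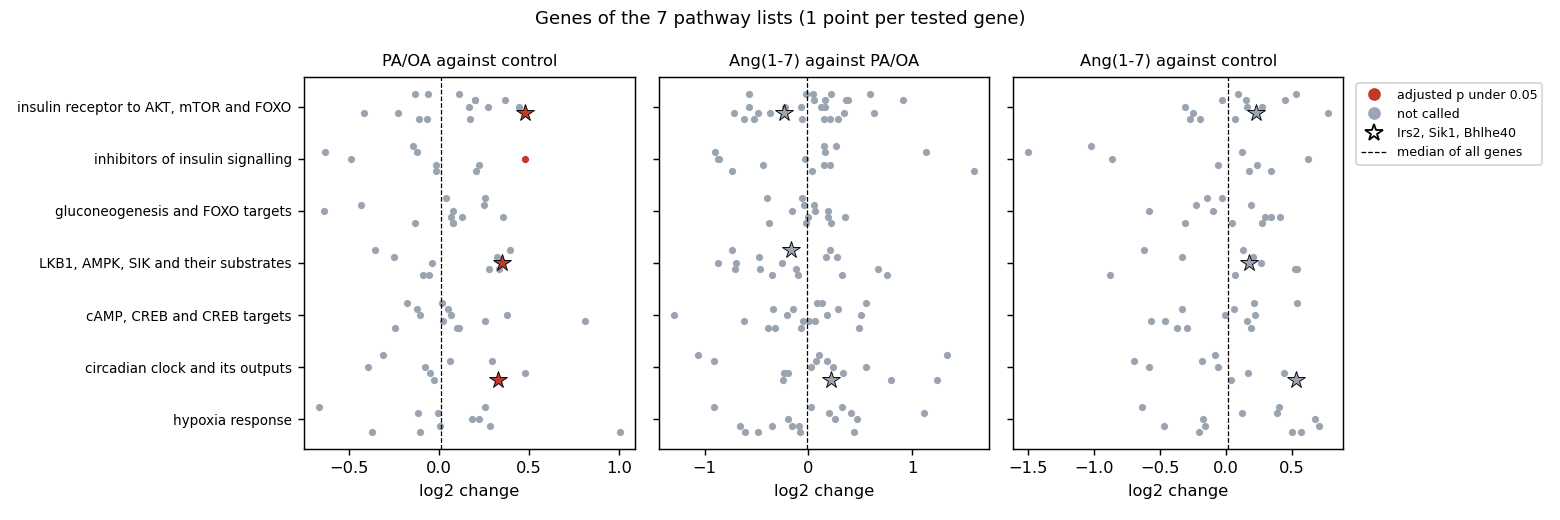
Log2 difference (x axis) of each tested gene of the 7 pathway lists (rows) in the 3 comparisons (panels, each with its own scale); red points were called at an adjusted p under 0.05, stars are Irs2, Sik1 and Bhlhe40, and the dashed line is the median of all genes. In PA/OA against control the 3 stars and Phlpp1 are the called genes; no gene of the lists was called in the other panels.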

How the data were processed

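The deposited tables hold raw counts per RefSeq transcript, 1 table for each pair of groups, with the authors' log2 fold change and p-value. The submitters' processing notes name bcl2fastq, HISAT2 2.2.5, HTSeq 0.11.2 and the build hg19, although the transcripts are mouse; so no gene coordinates were taken from them. Whether strand was used is not given in the sources used here. Counts were summed per symbol and tested within each table with edgeR 4.0.16 (TMM, filterByExpr, quasi-likelihood test, Benjamini-Hochberg adjustment over all genes tested, threshold 0.05) under R 4.3.3. DESeq2 1.42.0 and limma 3.58.1 were alternatives. Levels of Irs2, Sik1, Bhlhe40 and the genes most like them are TMM CPM over the 9 libraries. They use the 6674 transcripts listed in all 3 tables. Levels of Irs1 and the list genes are TMM CPM within the pair of groups compared, and marker sums are CPM without TMM scaling. Log2 CPM used a prior count of 2. Likeness was the highest Pearson r among named genes averaging 50 counts or more; 1 gene that this rule names is not reported here. Lengths are from GENCODE M21, and the upstream sequence is from RefSeq. List genes were named where called (up to 3 per list). Other list genes named in PA/OA against control were picked after their values were seen. These were Foxo1, Foxo3, Eif4ebp1, Junb, Nr1d2, Slc2a1, Epas1, Bnip3, Egln1, Ero1l, Higd1a and Pgk1. The levels of Ttyh2, Phyh and Ankrd1 were picked in the same way. The genes and lists were chosen with earlier results of these data known. The test was checked on simulated counts with less spread than the libraries here and larger changes than those of Irs2, Sik1 and Bhlhe40. That check does not cover differences of this size. Samples were not paired by number in the main fit. Deviations of same-numbered samples had correlations of -0.035 to 0.034, which cannot show how the cultures were handled.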

Additional observations from a re-analysis of the deposited data

How the results depend on the processing

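Under other scaling, no filter, DESeq2, limma-voom, the replicate block, the fit of all 9 samples, curated transcripts and each left-out library, Irs2, Sik1 and Bhlhe40 kept their directions in all 3 comparisons. With the replicate block, PA/OA against control gave 0.48, 0.35 and 0.33 with 303 genes called, and it changed no call of these 3 genes. Genes called in PA/OA against control, 314 in the report, were 533 with DESeq2, 33 in the fit of all 9 samples and 99 (without control 1) to 397 (without PA/OA 1) with 1 library left out; 200, 147 and 134 without control 3, PA/OA 2 and PA/OA 3. List genes called there, 4, became 0 in the fit of all 9 samples and 1 to 4 with 1 library left out, the 1 being without control 1. For Ang(1-7) against PA/OA, DESeq2 called 5 genes and left-out libraries gave 0 to 18, the 18 without Ang(1-7) 1. For Ang(1-7) against control, 15 became 259 with DESeq2, 100 in the fit of all 9 samples, 27 with curated transcripts and 4 (without any 1 control) to 624 (without Ang(1-7) 2), with 32 without Ang(1-7) 1 and 7 without Ang(1-7) 3. List genes called there were 4 with DESeq2, 1 in the fit of all 9 samples and 0 to 8 with 1 library left out, the 8 without Ang(1-7) 2. The cause of these shifts was not tested. Counting error, at most 1.54% of a value, was below the SD between libraries of the 3 genes in the PA/OA and Ang(1-7) groups. In control, the coefficient of variation was 1.49% for Irs2 and 1.80% for Sik1, close to counting error, and 8.44% for Bhlhe40.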
